A study of Mus musculus with 36 samples.

Results

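Arginine handling and alternative activation of macrophages were followed in primary mammary tumors of 2 intraductal mouse models through 10 genes chosen by name: the arginases Arg1 and Arg2, the inducible nitric oxide synthase Nos2, the arginine transporter Slc7a2, the secreted proteins Retnla and Chil3, the receptors Mrc1, Cd163 and Mgl2, and the transcription factor Egr2. The genes were chosen with earlier results of these data known. All 10 were present among the 21650 genes with an expression value, and no filter on low values was applied. RNA-seq was done on 36 libraries in 12 groups of 3. BALB/c females received 4T1 cells and C57BL/6 females received Py230 cells in a Matrigel mixture through the teat canal of the third mammary gland, in lactation and shortly after weaning of the pups, and the tumors were taken 1, 3 and 6 weeks after inoculation. Glands of BALB/c and C57BL/6 mice given Matrigel without tumor cells were the controls at the same times. No group received a drug, and the labels name no altered allele of the hosts. 4T1 is a metastatic BALB/c mammary carcinoma line that carried luciferase here, and Py230 is a line from a tumor of a C57BL/6 mouse with the MMTV-PyMT transgene, which drives the polyoma middle T oncogene in mammary epithelium. Each model is a single line in a single strain, and fewer 4T1 than Py230 cells were inoculated. Line, strain and cell number therefore cannot be told apart between the tumors, and the Matrigel glands measure the strain alone. The ages of the mice are not in the labels.

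Macrophages can send arginine along competing routes. Arginase splits it into ornithine and urea and so feeds polyamine and proline synthesis, while nitric oxide synthase turns it into nitric oxide and citrulline. Interleukin-4 and interleukin-13 act through the receptor chain Il4ra and the factor Stat6 to induce Arg1, Retnla, Chil3, Mrc1 and Mgl2 in mouse macrophages, a state called alternative activation, whereas interferon gamma and microbial products induce Nos2 in the state called classical activation. Macrophages of growing tumors often carry genes of both states.

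The levels are scores, that is, log-like values standardized within each library, so that the genes of a library average 0 with an SD of 1. Between the genes of a library, 1 score unit spanned 2.94 log2 units of the authors' mean normalized count on average, with a range of 2.86 to 3.18 over the libraries, and this slope between genes was not used to convert differences. Levels of different genes can be compared only per length, as the authors' mean normalized count per kilobase of annotated exon. This mean is a single value per gene that joins the groups, so the order below is not that of any group. On that scale Retnla was the most abundant of the 10 genes, at 17571 counts per kb, followed by Mgl2 with 956, Arg1 with 915 and Mrc1 with 893. Cd163 had 460, Slc7a2 had 282, Chil3 had 223, Egr2 had 119, Arg2 had 111, and Nos2 was the lowest with 52.3. Of the 75-base windows of their transcripts, 17.9% were shared with another gene for Arg2 (Vti1b and Gm48780), 13% for Chil3 (Chil4 and Gm6522), 6.56% for Mgl2 (Clec10a) and 5.4% for Slc7a2 (Gm26584), so reads of these genes could be split or lost. No window was shared for the other 6 genes.

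The promoters of Retnla, Mgl2 and Chil3 are shown because Retnla and Mgl2 fell together in late 4T1 tumors while Chil3 did not. The letters come from RefSeq on GRCm38.p6 (mm10), run 5′ to 3′ on the strand of the gene, and stop before the first annotated exon. Capitals mark matches to motifs searched on both strands of the 250 bases before the RefSeq start: TTCNNNNGAA (the letters of a STAT6 site), TTCNNNGAA (the letters of other STAT sites), TTGCNNAA (C/EBP) and ACGTG (hypoxia response). For Retnla (chr16:48842359-48842550, plus strand), Mgl2 (chr11:70130107-70130328, plus strand) and Chil3 (chr3:106167565-106167814, minus strand) the sequences were:

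Retnla: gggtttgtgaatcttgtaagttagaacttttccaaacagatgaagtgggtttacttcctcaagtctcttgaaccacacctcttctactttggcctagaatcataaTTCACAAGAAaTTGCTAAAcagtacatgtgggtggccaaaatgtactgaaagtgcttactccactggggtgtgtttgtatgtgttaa

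Mgl2: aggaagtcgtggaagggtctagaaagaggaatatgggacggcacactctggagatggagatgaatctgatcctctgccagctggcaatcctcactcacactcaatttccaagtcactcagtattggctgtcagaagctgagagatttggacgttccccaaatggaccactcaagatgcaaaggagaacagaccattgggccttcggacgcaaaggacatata

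Chil3: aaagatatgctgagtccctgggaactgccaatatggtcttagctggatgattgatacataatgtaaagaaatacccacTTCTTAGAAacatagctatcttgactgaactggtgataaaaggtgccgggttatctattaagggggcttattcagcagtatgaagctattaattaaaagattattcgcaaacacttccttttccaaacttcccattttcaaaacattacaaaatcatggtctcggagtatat

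Retnla held a STAT6-type match, 145 to 136 bases before the start, and beside it a C/EBP-type match, 134 to 127 bases before it. Chil3 held a TTCNNNGAA match, 172 to 164 bases before the start. None of the letters searched was found in the windows of Mgl2, Mrc1 and Cd163. Egr2 has several RefSeq starts, and only the window at chr10:67535249-67535498 held ACGTG. The matches on its 2 strands overlap in the palindrome CACGTG, 27 to 22 bases before that start. Among 32536 promoter windows of the same length, 5.89% held TTCNNNNGAA, 7.04% TTCNNNGAA, 9.57% TTGCNNAA and 16.7% ACGTG. RefSeq entries were at hand for 6 of the 10 genes and were not used here for Arg1, Arg2, Nos2 and Slc7a2.

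On mm10, with the GENCODE vM21 annotation, Arg1 (ENSMUSG00000019987) lies at chr10:24915221-24927484 on the minus strand, Nos2 (ENSMUSG00000020826) at chr11:78920787-78960254 on the plus strand and Slc7a2 (ENSMUSG00000031596) at chr8:40862396-40922308 on the plus strand. Arg2 (ENSMUSG00000021125) lies at chr12:79130777-79156301, Mrc1 (ENSMUSG00000026712) at chr2:14229392-14332057, Cd163 (ENSMUSG00000008845) at chr6:124304656-124330527 and Egr2 (ENSMUSG00000037868) at chr10:67535475-67542188, all on the plus strand. All values refer to reads over the exons of the whole gene.

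No label says that the 3 libraries of a group came from separate cultures or litters, so p-values measure only the spread between these libraries. The libraries are whole tissue, in which fewer cells of a type and less RNA per cell cannot be told apart. The labelled tissue was checked on fixed marker lists, given as the mean score over a list. Epithelial markers (Epcam, Krt8 and 4 others) were present in all groups, with Krt8 between 1.31 and 1.92 in every library. Their list means were 1.32, 0.756 and 1.53 in the 4T1 tumors of week 6 and 1.26 to 1.74 in the other groups. The 11 macrophage markers had means of 1.11 to 1.52 in 4T1 tumors, 0.932 to 1.25 in Py230 tumors and 0.718 to 1.34 in Matrigel glands. The 6 adipocyte markers lay at 1.80 to 2.39 in the glands but at -0.286 to 0.0881 in 4T1 and -0.0199 to 1.18 in Py230 tumors at week 6. Py230 tumors of week 1 lay at 1.93 to 2.13, within the gland range, and those of week 3 at 0.493, 1.88 and 2.14. Skeletal muscle markers varied widely within groups, for example from -0.493 to 2.18 among 4T1 tumors at week 1. Among the 4T1 tumors, replicate 2 at week 1 and replicates 2 and 3 at week 3 had adipocyte means of 1.88, 2.14 and 2.29, against 1.32, 1.38 and 0.788 in the others of those times.

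Between 4T1 and Py230 primary tumors, 5 of the 10 genes were higher in 4T1 and 0 lower at week 1 (limma, adjusted p under 0.05), where 19.4% of all genes passed the test in either direction, 11.0% higher and 8.43% lower. The counts were 7 higher and 0 lower at week 3, where 30.3% of all genes passed, 11.9% higher and 18.5% lower. They were 2 higher and 3 lower at week 6, where 40.8% passed, 24.1% higher and 16.7% lower, so that the 5 genes called were close to the share of all genes. The median difference of the 10 genes was 0.552, 0.827 and 0.0456 at the 3 times, beside 0.00552, -0.0112 and 0.0364 over all genes tested. The 4T1 and Py230 libraries did not overlap for 4, 8 and 6 of the 10 genes, where 39.1%, 32.6% and 58.2% of all genes did not overlap. Without replicate 1 of the 4T1 tumors the count at week 1 was 0, without replicate 3 it was 1 and without replicate 1 of the Py230 tumors it was 3. Fitted on only the 6 libraries compared, limma called 0 of the 10 genes at weeks 1 and 3, with 7 and 6 at an unadjusted p under 0.05, and 1487 and 434 of all genes were called. With the strain difference of the glands subtracted, limma called 0, 2 and 3 of the 10 at the 3 times, where it called 0.305%, 9.15% and 25.5% of all genes, and at week 1 an unadjusted p under 0.05 was found for 5.

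**Figure D1:**
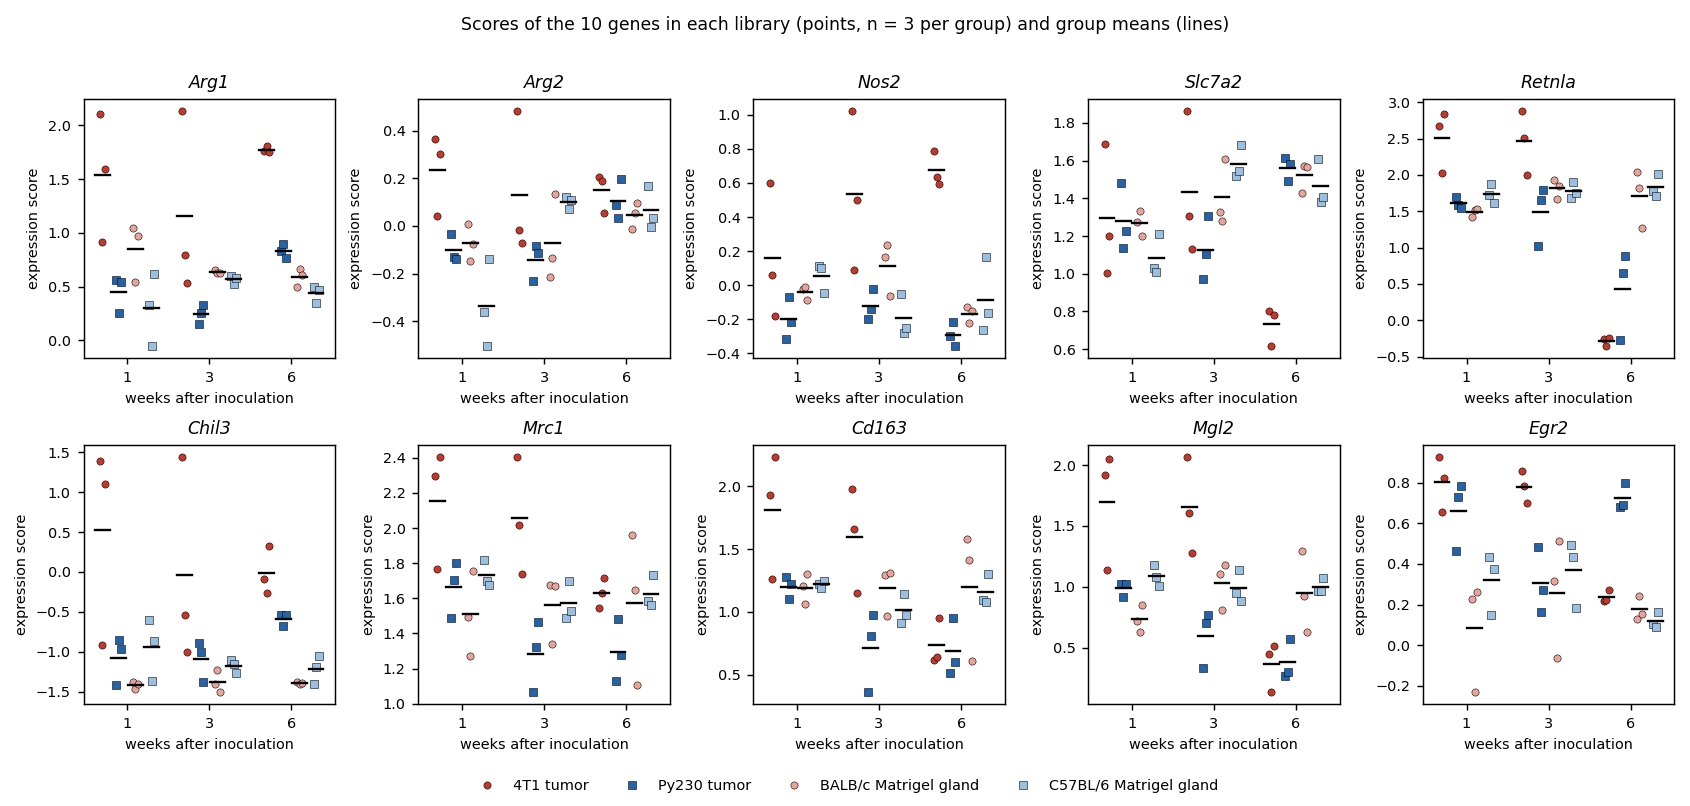
Expression score (vertical axes, scaled separately per gene) of the 10 genes in each library against weeks after inoculation, with 4T1 tumors as red circles, Py230 tumors as blue squares, the Matrigel glands of their strains in the paler shades and group means (n = 3) as lines. Retnla, Slc7a2, Mgl2, Cd163 and Egr2 lie lower in the 3 late 4T1 tumors than in the 3 tumors of week 3, while the late 4T1 scores of Arg1 (1.75 to 1.81) and Nos2 (0.596 to 0.790) lie above all glands.

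Arg1, the cytosolic arginase, had higher scores in the 4T1 model than in Py230 at each time point. At week 1 its scores were 2.11, 0.915 and 1.60 in 4T1 and 0.565, 0.253 and 0.543 in Py230 tumors. The week 3 scores were 2.14, 0.796 and 0.530 in 4T1 and 0.148, 0.258 and 0.326 in Py230 tumors. Those of week 6 were 1.76, 1.81 and 1.75 in 4T1 and 0.831, 0.893 and 0.768 in Py230 tumors. The models did not overlap at any time, and the late 4T1 tumors stood closest together, with a mean of 1.77 ± 0.0289 (SD, n = 3). The differences were 1.09, 0.911 and 0.944 (SE 0.262 each), with limma adjusted p of 0.00566, 0.00979 and 0.00493. Without replicate 1 of the 4T1 tumors the difference was 0.802 at week 1 (limma adjusted p = 0.0637) and 0.419 at week 3 (limma adjusted p = 0.125).

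Against the Matrigel glands, Arg1 passed the test only in late 4T1 tumors. Over all 18 gland libraries it ran from -0.0562 to 1.05 with a median of 0.592, and the 4T1 tumors of replicate 2 at week 1 and replicates 2 and 3 at week 3 lay inside this range. The 4T1 tumors exceeded the BALB/c glands by 1.19 at week 6 (SE 0.262, limma adjusted p = 0.000397), where the glands had scores of 0.495, 0.663 and 0.608. The differences of 0.686 and 0.518 at weeks 1 and 3 did not pass the test (limma adjusted p = 0.0689 and 0.255). Py230 tumors differed from C57BL/6 glands by 0.157, -0.325 and 0.393, none past the threshold (limma adjusted p = 0.919, 0.404 and 0.225), with the 3 tumors below the 3 glands at week 3 and above them at week 6. BALB/c glands exceeded C57BL/6 glands by 0.557 at week 1 (95% interval 0.0186 to 1.10, limma adjusted p = 0.390). With the gland difference between the strains subtracted, the 4T1 excess in Arg1 was 0.529, 0.843 and 0.793 (SE 0.371 each) and did not pass the test at any time (limma adjusted p = 0.472, 0.152 and 0.122).

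Arg2, the mitochondrial arginase, differed less. At week 1 it had scores of 0.363, 0.0412 and 0.303 in 4T1 and -0.0350, -0.132 and -0.140 in Py230 tumors, a difference of 0.338 (SE 0.110, limma adjusted p = 0.0318). This call was lost without any single library of the 5 other than 4T1 replicate 2, with limma adjusted p from 0.0560 to 0.157. At week 3 the models did not overlap but the difference of 0.274 did not pass the test (limma adjusted p = 0.0598), and at week 6 it was 0.0433 with a 95% interval of -0.182 to 0.269. The 18 glands ran from -0.506 to 0.167, and no comparison of a tumor with its glands passed the test for Arg2.

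Nos2, the inducible nitric oxide synthase, was also higher in 4T1 tumors, and its separation was widest at week 6. At week 1 the 4T1 tumors had scores of 0.600, 0.0604 and -0.181 and the Py230 tumors -0.313, -0.0698 and -0.217. The scores of week 3 were 1.02, 0.0910 and 0.497 against -0.201, -0.142 and -0.0201. By week 6 they were 0.790, 0.637 and 0.596 against -0.299, -0.218 and -0.359. The models overlapped at week 1 and were apart at weeks 3 and 6. The differences were 0.360, 0.659 and 0.966 (SE 0.164 each), with limma adjusted p of 0.119, 0.00337 and 2.72e-05. In the glands Nos2 ran from -0.283 to 0.235, and the 3 late 4T1 tumors were above all 18 of them. The late 4T1 tumors exceeded the BALB/c glands by 0.841 (limma adjusted p = 9.71e-05), while the late Py230 tumors lay -0.206 from their glands (95% interval -0.542 to 0.130, limma adjusted p = 0.314). With the strain difference subtracted, the 4T1 excess at week 6 was 1.05 (SE 0.231, limma adjusted p = 0.00126), and at week 3 it was 0.353 and did not pass the test (limma adjusted p = 0.354).

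Slc7a2, a cationic amino acid transporter that brings arginine into macrophages, went the other way in late 4T1 tumors. Its scores at week 6 were 0.800, 0.615 and 0.783 in 4T1 and 1.61, 1.49 and 1.58 in Py230 tumors. These 3 4T1 libraries were the lowest of all 36, below the gland range of 1.01 to 1.68. The difference was -0.829 against Py230 tumors (SE 0.148, limma adjusted p = 5.11e-05) and -0.791 against BALB/c glands (limma adjusted p = 5.98e-05), and with the strain difference subtracted it was -0.887 (limma adjusted p = 0.00224). At weeks 1 and 3 the models overlapped, with differences of 0.0159 (95% interval -0.287 to 0.319) and 0.308 (95% interval 0.00468 to 0.611, limma adjusted p = 0.117). In Py230 tumors Slc7a2 was lower than in C57BL/6 glands at week 3, with a difference of -0.454 (limma adjusted p = 0.0312). That call was lost when any of its 6 libraries but Py230 replicate 3 was left out, with limma adjusted p from 0.0554 to 0.230, and on only these 6 libraries (limma adjusted p = 0.105).

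The contrast of Arg1 and Nos2 was formed as the Arg1 score minus the Nos2 score in each library, so that an offset between the genes cancels between groups. At week 1 it was 1.51, 0.855 and 1.78 in 4T1 and 0.877, 0.323 and 0.761 in Py230 tumors. In week 3 it was 1.11, 0.705 and 0.0329 against 0.349, 0.400 and 0.347. In week 6 it was 0.973, 1.17 and 1.16 against 1.13, 1.11 and 1.13. The models therefore overlapped at each time in this contrast, and at week 6 their means of 1.10 ± 0.110 and 1.12 ± 0.00954 (SD, n = 3) differed by -0.0226, although both genes were higher in 4T1 tumors. Over the 3 times together the 4T1 tumors exceeded the Py230 tumors by 0.319 (two-sided exact permutation within weeks, p = 0.0750, adjusted over 3 tests 0.113). They exceeded the BALB/c glands by 0.307 (exact permutation p = 0.0640, adjusted 0.113), and the Py230 tumors exceeded the C57BL/6 glands by 0.204 (exact permutation p = 0.210, adjusted 0.210). Within a single week, an exact permutation of 3 against 3 libraries cannot give less than p = 0.10. Without replicate 3 of the 4T1 tumors of week 3, the library with the lowest contrast of the 4T1 tumors, the first 2 differences were 0.416 and 0.405 and both passed (exact permutation, adjusted p = 0.0116). For Py230 tumors and C57BL/6 glands the pooled value joins opposite signs, with differences of 0.413, -0.399 and 0.599 at weeks 1, 3 and 6. At week 3 the 3 tumors lay below the 3 glands (0.651 to 0.834), and at week 6 they lay above them (0.183 to 0.756).

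**Figure D2:**
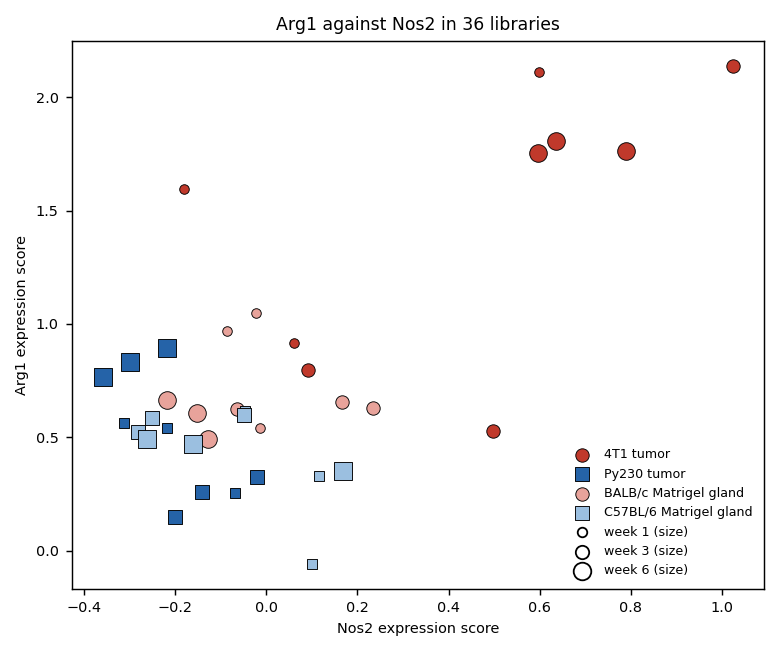
Arg1 score (vertical axis) against Nos2 score (horizontal axis) in the 36 libraries, with symbol size for weeks 1, 3 and 6. The 3 late 4T1 tumors lie at Arg1 scores of 1.75 to 1.81 with Nos2 scores of 0.596 to 0.790, and the 3 late Py230 tumors at Arg1 scores of 0.768 to 0.893 with Nos2 scores of -0.359 to -0.218.

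Of 29 other genes of arginine metabolism and nitric oxide synthesis, 27 were measured. Between the models 4 were higher in 4T1 and 0 lower at week 1, 4 higher and 7 lower at week 3, and 6 higher and 5 lower at week 6, with medians of 0.000219, -0.0744 and 0.0248. The shares of all genes were 11.0%, 11.9% and 24.1% higher and 8.43%, 18.5% and 16.7% lower. Gatm, which uses arginine to make the precursor of creatine, was higher in 4T1 tumors at week 1 by 1.08 (SE 0.182, limma adjusted p = 0.000208). The proline synthesis enzyme Pycr1 was lower in 4T1 tumors at week 3, with a difference of -0.742 (limma adjusted p = 9.83e-08). Slc25a15, the ornithine carrier of mitochondria, was lower at week 6, with a difference of -0.375 (limma adjusted p = 2.66e-08). Against the glands at week 6, 15 of the 27 rose in 4T1 tumors and 5 fell, where 38.6% of all genes were higher and 21.5% lower, and 15 rose and 7 fell in Py230 tumors, where 28.8% were higher and 18.7% lower. Ornithine decarboxylase, Odc1, which opens polyamine synthesis from ornithine, was higher in late 4T1 tumors than in the glands by 0.599 (SE 0.0491, limma adjusted p = 2.26e-10), and its partner protein Azin1 by 0.455 (limma adjusted p = 1.78e-09). Slc7a1, another arginine transporter, was higher in late Py230 tumors than in their glands by 0.604 (limma adjusted p = 8.71e-07).

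Retnla, a secreted resistin-like protein induced by Stat6 that is also made in white fat, had the widest range of the 10 genes. At week 1 its scores were 2.68, 2.03 and 2.83 in 4T1 and 1.69, 1.58 and 1.55 in Py230 tumors. In week 3 they were 2.89, 2.51 and 1.99 against 1.02, 1.66 and 1.79. In week 6 they were -0.261, -0.359 and -0.239 against -0.266, 0.650 and 0.889. The models were apart at weeks 1 and 3 with 4T1 higher and overlapped at week 6, where all 3 4T1 tumors and all 3 Py230 tumors lay below the gland range of 1.27 to 2.04. The differences between the models were 0.905, 0.971 and -0.710 (SE 0.244 each), with limma adjusted p of 0.0118, 0.00374 and 0.0213. The call at week 1 was lost without 4T1 replicate 1 or 3 (limma adjusted p = 0.0625 and 0.0882) and that at week 3 without Py230 replicate 1 (0.735, limma adjusted p = 0.0502). The call at week 6 was lost without 4T1 replicate 2 (limma adjusted p = 0.0632) or Py230 replicate 2 or 3 (limma adjusted p = 0.0942 and 0.163, the difference then being -0.597 and -0.478), and on only the 6 libraries compared (limma adjusted p = 0.0950).

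The change of Retnla between weeks 3 and 6 was -2.75 in 4T1 tumors (SE 0.244, limma adjusted p = 1.49e-09) and -1.07 in Py230 tumors (limma adjusted p = 0.00854). At week 6, 4T1 tumors lay -1.99 from BALB/c glands (limma adjusted p = 1.78e-07) and Py230 tumors -1.41 from C57BL/6 glands (limma adjusted p = 4.57e-05). The Py230 fall did not pass without Py230 replicate 3 of week 3 or replicate 1 of week 6 (limma adjusted p = 0.0653 and 0.105), nor on only the libraries compared (limma adjusted p = 0.220). Between weeks 3 and 6 all 6 adipocyte markers also fell in 4T1 tumors, with a median of -2.02, where 18.8% of all genes fell. In Py230 tumors the late library with the lowest Retnla, replicate 1, also had the lowest adipocyte mean, -0.0199 against 0.218 and 1.18. Py230 tumors of week 3 had the same order in adipocyte means (0.493, 1.88 and 2.14) and Retnla (1.02, 1.66 and 1.79). In 4T1 tumors of week 3 the order was reversed, with adipocyte means of 0.788, 2.14 and 2.29 beside Retnla scores of 2.89, 2.51 and 1.99. Among the 4T1 tumors of week 1, replicate 2 had the highest adipocyte mean (1.88) and the lowest Retnla score (2.03). The part of fat cells in the Retnla values was not tested. At week 1, 4T1 tumors exceeded BALB/c glands in Retnla by 1.02 (limma adjusted p = 0.00930) while their adipocyte means, 1.32, 1.88 and 1.38, lay below those of the glands, 2.11, 2.18 and 1.91. This call was lost without 4T1 replicate 1 or 3 or gland replicate 2 (limma adjusted p = 0.0582, 0.0810 and 0.0579).

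Chil3, a secreted chitinase-like protein of alternatively activated macrophages and also of immature neutrophils, was the most uneven among 4T1 tumors. Its scores were 1.39, -0.923 and 1.11 at week 1, 1.45, -0.546 and -0.9998 at week 3 and -0.0875, -0.265 and 0.323 at week 6. In Py230 tumors they were -1.42, -0.851 and -0.961, then -0.891, -1.01 and -1.38, then -0.546, -0.684 and -0.535. The models overlapped at weeks 1 and 3 and were apart at week 6, and the BALB/c glands lay between -1.51 and -1.23 over all times. The difference between the models was 1.60 at week 1 (SE 0.437, limma adjusted p = 0.0124), and it was lost without 4T1 replicate 1 or 3 or Py230 replicate 1 (limma adjusted p = 0.109, 0.0916 and 0.0632). At weeks 3 and 6 it was 1.06 and 0.579 and did not pass (limma adjusted p = 0.0676 and 0.314). The late 4T1 tumors exceeded the BALB/c glands by 1.39 (limma adjusted p = 0.00831), and the early ones by 1.94 (limma adjusted p = 0.00767). The early call was lost without 4T1 replicate 1 or 3 or gland replicate 2 (limma adjusted p = 0.0641, 0.0695 and 0.0552).

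The 10 neutrophil markers, which include S100a8, S100a9 and Ly6g, were higher in late 4T1 than in late Py230 tumors for 9 genes and lower for 1 (24.1% and 16.7% of all genes), with list means of 0.0225 to 0.298 against -0.709 to -0.505. Their part in the Chil3, Arg1 and Nos2 values was not tested. In the early 4T1 tumors the neutrophil mean was -0.228, -0.582 and -0.190, lowest in replicate 2, the library in which Chil3 was also lowest. Replicate 2 also had the lowest macrophage, eosinophil, dendritic cell and T cell means of these tumors. Among the late 4T1 tumors, replicate 3 had the lowest neutrophil mean (0.0225) but the highest Chil3 score (0.323).

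Mrc1, the mannose receptor, Cd163, the scavenger receptor for haemoglobin with haptoglobin, and Mgl2, a galactose-binding lectin also carried by some dendritic cells, are the receptors of the set. Mgl2 had scores of 1.92, 1.13 and 2.05 in 4T1 tumors at week 1, 2.07, 1.61 and 1.28 at week 3 and 0.450, 0.133 and 0.514 at week 6. In Py230 tumors they were 1.02, 0.913 and 1.02, then 0.333, 0.701 and 0.765, then 0.265, 0.302 and 0.574. The models were apart at weeks 1 and 3 and overlapped at week 6, and the 18 glands ran from 0.627 to 1.29. The differences were 0.714, 1.05 and -0.0146 (SE 0.192 each), with limma adjusted p of 0.0115, 0.000196 and 0.963. The call at week 1 was lost without 4T1 replicate 1 or 3 (limma adjusted p = 0.0755 and 0.103), and that at week 3 held without each library in turn, from 0.844 to 1.24. Mgl2 was also past the threshold at week 3 with the strain difference subtracted, at 1.01 (limma adjusted p = 0.0210). On only the 6 libraries compared, the call at week 3 was lost (limma adjusted p = 0.0707).

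At week 6 Mgl2 was lower than in the glands in both models, with differences of -0.583 in 4T1 (limma adjusted p = 0.0111) and -0.621 in Py230 tumors (limma adjusted p = 0.00940). The 4T1 call was lost without tumor replicate 2 or gland replicate 1 (limma adjusted p = 0.0674 and 0.0914). Against BALB/c glands at week 1 Mgl2 was higher by 0.968 (limma adjusted p = 0.00503), and without tumor replicate 3 by 0.793 (limma adjusted p = 0.0569).

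Cd163 had scores of 1.93, 1.26 and 2.24 in 4T1 tumors at week 1, 1.98, 1.66 and 1.15 at week 3 and 0.618, 0.643 and 0.949 at week 6. In Py230 tumors they were 1.28, 1.10 and 1.22, then 0.358, 0.808 and 0.977, then 0.513, 0.954 and 0.600. Only at week 3 were the models apart, with a difference of 0.882 (SE 0.223, limma adjusted p = 0.00388) that ranged from 0.691 to 1.10 without each library in turn. This call was lost with the strain difference subtracted (0.702, limma adjusted p = 0.161) and on only the 6 libraries compared (limma adjusted p = 0.120). At weeks 1 and 6 the differences were 0.611 and 0.0480 (limma adjusted p = 0.0545 and 0.889). Cd163 fell in 4T1 tumors between weeks 3 and 6, with a change of -0.859 (limma adjusted p = 0.00217). In the glands it ran from 0.607 to 1.58, with a median of 1.20, and no comparison of a tumor with its glands passed the test for Cd163.

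Mrc1 had scores of 2.30, 1.77 and 2.40 in 4T1 tumors at week 1, 2.41, 2.02 and 1.74 at week 3 and 1.54, 1.63 and 1.72 at week 6. In Py230 tumors they were 1.49, 1.70 and 1.80, then 1.06, 1.32 and 1.46, then 1.13, 1.48 and 1.28. The models overlapped at week 1 and were apart at weeks 3 and 6. The differences were 0.492, 0.771 and 0.335 (SE 0.182 each), with limma adjusted p of 0.0572, 0.00219 and 0.149. The call at week 3 was lost with the strain difference subtracted (0.780, limma adjusted p = 0.0547) and on only the 6 libraries compared (limma adjusted p = 0.0927). Against BALB/c glands Mrc1 was higher at week 1 by 0.647 (limma adjusted p = 0.0197), a call lost without tumor replicate 1 or 3 or gland replicate 2 (limma adjusted p = 0.0973, 0.131 and 0.126), and at week 6 it differed by 0.0583 (95% interval -0.315 to 0.432). Its change of -0.425 in 4T1 tumors between weeks 3 and 6 separated the libraries but did not pass the test (limma adjusted p = 0.0513).

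Egr2, a transcription factor that macrophages use as a marker and driver of the alternative state, differed in its course from the receptors. Its scores in 4T1 tumors were 0.929, 0.657 and 0.824 at week 1, 0.856, 0.784 and 0.702 at week 3 and 0.216, 0.222 and 0.270 at week 6. In Py230 tumors they were 0.464, 0.730 and 0.785, then 0.486, 0.165 and 0.272, then 0.680, 0.689 and 0.800. The models overlapped at week 1, 4T1 was above Py230 at week 3 and below it at week 6, with no overlap at either time. The differences were 0.143, 0.473 and -0.487 (SE 0.125 each), with limma adjusted p of 0.445, 0.00542 and 0.00256. With the strain difference subtracted they were 0.377, 0.586 and -0.546, with limma adjusted p of 0.258, 0.0369 and 0.0234. On only the 6 libraries compared, the call between the models at week 3 was lost (limma adjusted p = 0.0635). Egr2 was above the BALB/c glands in early 4T1 tumors by 0.718 (limma adjusted p = 0.00385) and above the C57BL/6 glands in late Py230 tumors by 0.605 (limma adjusted p = 0.000308), and both calls held without each library in turn, but on only the 6 libraries compared the early 4T1 call was lost (limma adjusted p = 0.145). At week 3 it was the only one of the 10 genes called against the BALB/c glands, with a difference of 0.526 (limma adjusted p = 0.0303), a call lost without 4T1 replicate 1 or gland replicate 1 or 2 (limma adjusted p = 0.301, 0.0646 and 0.169) and on only the libraries compared (limma adjusted p = 0.479).

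**Figure D3:**
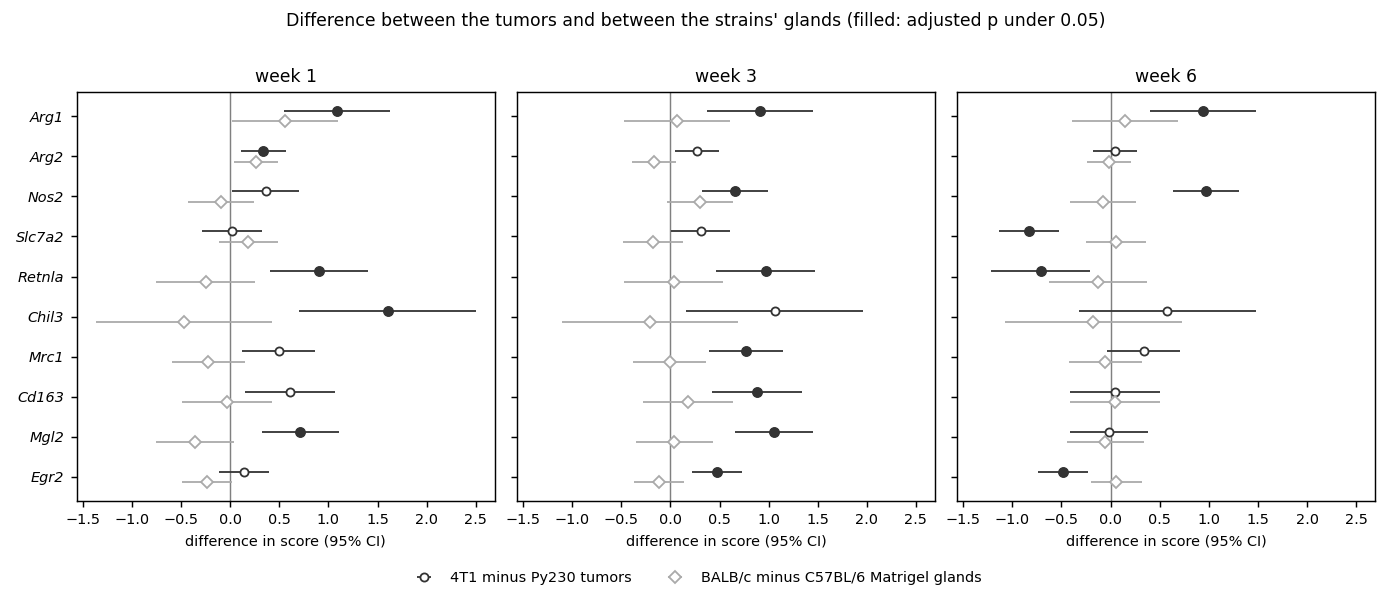
Difference in score between 4T1 and Py230 tumors (circles) and between BALB/c and C57BL/6 Matrigel glands (diamonds) for the 10 genes at weeks 1, 3 and 6, with 95% intervals of the limma fit and filled symbols for an adjusted p under 0.05. Filled circles number 5, 7 and 5, those of week 6 on both sides of 0, and no diamond is filled.

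The Matrigel glands of the strains did not differ past the threshold for any of the 10 genes at weeks 1, 3 or 6, where limma called 3.06%, 3.77% and 3.84% of all genes. At an unadjusted p under 0.05 the counts were 2, 0 and 0, the 2 being Arg1 and Arg2 at week 1. With same-numbered glands of week 1 as a block, chosen after seeing the data, 0 of the 10 and 727 of all genes passed (limma). Of the 10, 3 were at an unadjusted p under 0.05, and the limma adjusted p was 0.346 for Arg1 and 0.259 for Arg2. Against BALB/c glands 5 of the 10 genes were higher in 4T1 tumors at week 1, where 16.6% of all genes were called, 9.91% higher and 6.72% lower. There was 1 higher at week 3, where 3.25% were called, 2.10% higher and 1.15% lower. At week 6, 3 were higher and 3 lower, where 60.1% were called, 38.6% higher and 21.5% lower. The count at week 1 was 2 without 4T1 replicate 1, 1 without replicate 3, 8 without replicate 2 and 2 without gland replicate 2. At week 3 it was 0 without 4T1 replicate 1 or gland replicate 1 or 2, 3 without 4T1 replicate 2 and 6 without 4T1 replicate 3. Fitted on only the 6 libraries compared, limma called 0 of the 10 genes and 0 of all genes at weeks 1 and 3, with 7 and 4 of the 10 at an unadjusted p under 0.05. Against C57BL/6 glands 0 genes passed in Py230 tumors at week 1 (limma, 0.00924% of all genes called, 2 of the 10 at an unadjusted p under 0.05), 1 was lower at week 3 (19.7% of all genes called, 6.90% lower), and 1 was higher and 2 lower at week 6 (47.6% called, 28.8% higher and 18.7% lower). The comparisons with Py230 and with BALB/c glands share the 4T1 libraries and are not independent of each other.

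Over time, 0 of the 10 genes passed in 4T1 tumors between weeks 1 and 3 (limma, 0.628% of all genes called), with 1, Nos2, at an unadjusted p under 0.05. Between weeks 3 and 6, 1 rose and 5 fell, where 53.0% of all genes passed, 34.2% rising and 18.8% falling. The 5 that fell were Retnla (-2.75), Mgl2 (-1.29), Cd163 (-0.859), Slc7a2 (-0.702) and Egr2 (-0.544), each with the late libraries below all 3 of week 3, and these calls held without each library in turn. Arg1 rose by 0.619 (limma adjusted p = 0.0490), with overlap, and this call was lost without any library but 4T1 replicate 1 of week 3 (limma adjusted p from 0.0833 to 0.355) and on only the 6 libraries compared (limma adjusted p = 0.258). In Py230 tumors 0 genes rose and 1 fell between weeks 1 and 3, and 1 rose and 1, Retnla, fell between weeks 3 and 6. Egr2 fell by 0.352 between weeks 1 and 3 (limma adjusted p = 0.0468) and rose by 0.415 between weeks 3 and 6 (limma adjusted p = 0.0458), where 20.0% and 6.03% of all genes passed, 7.17% falling in the first interval, and 3.96% rising and 2.06% falling in the second. Each of these 2 calls was lost without 5 of its 6 libraries, with limma adjusted p of 0.0668 to 0.181 and of 0.104 to 0.205, and on only those 6 (limma adjusted p = 0.168 and 0.105).

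The difference between the models changed between weeks 3 and 6 for 4 of the 10 genes, all toward lower values in 4T1, where 26.7% of all genes passed and 8.88% changed that way. The 4 were Slc7a2, Retnla, Mgl2 and Egr2, and the same 4 changed in that direction between weeks 1 and 6, where 27.4% of all genes passed, 12.4% that way. Between weeks 1 and 3, 0 genes passed (limma, 15.3% of all genes called, 4.89% toward higher and 10.4% toward lower values in 4T1), and 0 did so at an unadjusted p under 0.05. The difference in Arg1 changed by -0.175 between weeks 1 and 3 (95% interval -0.937 to 0.587) and by 0.0327 between weeks 3 and 6 (95% interval -0.729 to 0.795), and neither change passed the test. The change for Nos2 between weeks 1 and 6 was 0.607 (95% interval 0.131 to 1.08, limma adjusted p = 0.0518).

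**Figure D4:**
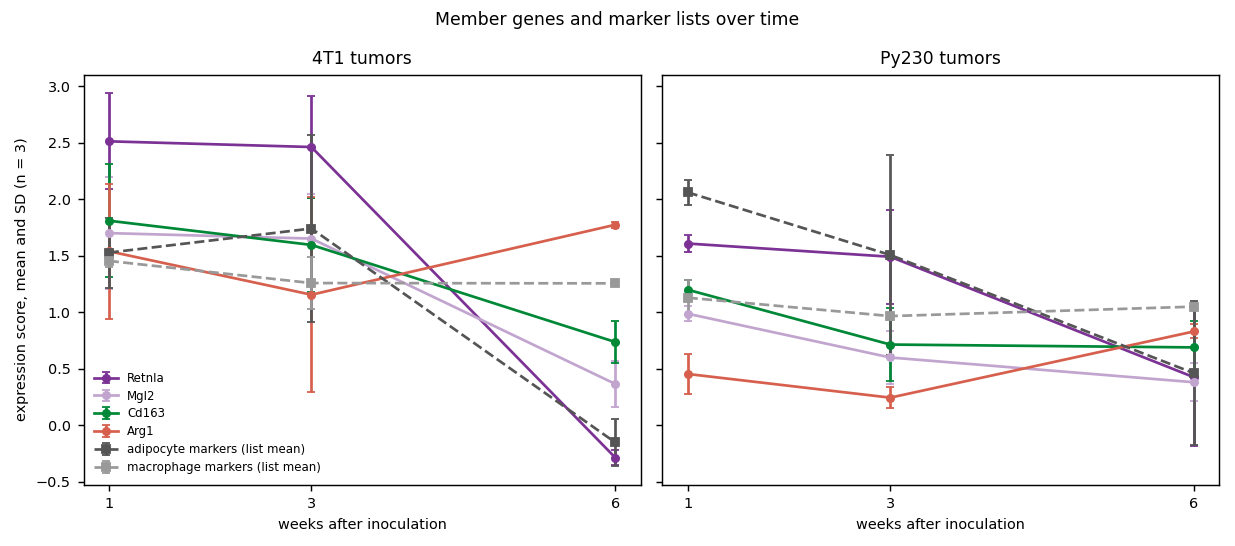
Mean score with SD (n = 3) of Retnla, Mgl2, Cd163 and Arg1 (solid lines) and of the adipocyte and macrophage marker lists (dashed lines) against weeks after inoculation, in 4T1 tumors on the left and Py230 tumors on the right. In 4T1 tumors the adipocyte mean fell with Retnla between weeks 3 and 6, to -0.152, while the macrophage mean was 1.26 at both times.

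Other cell markers were followed over the same interval in 4T1 tumors, in which 34.2% of all genes rose and 18.8% fell. Of 11 macrophage markers 1 rose and 2 fell between weeks 3 and 6, with a median of -0.0927. Of 4 eosinophil markers measured 3 fell, and their list mean went from -0.0294 to -0.791. Of 6 dendritic cell markers 4 fell, with list means of 0.462 and -0.169. Of 5 skeletal muscle markers 2 fell and of 5 T cell markers 1 fell, and of 6 epithelial markers 2 rose and 2 fell. The part of these cell types in the falls of Retnla, Mgl2, Cd163, Slc7a2 and Egr2 was not tested. At weeks 1 and 3, 5 and 6 of the 11 macrophage markers were higher in the 4T1 model than in Py230 (11.0% and 11.9% of all genes), with medians of 0.403 and 0.375 and the smallest p-values for Ccr2 and Itgam at week 1 and Itgam and Lyz2 at week 3.

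A list of 17 genes held ligands, receptors and signal carriers of interleukin-4 and interleukin-13, and also transcription factors such as Irf4 and Klf4. In 4T1 against Py230 tumors 6, 12 and 3 of them passed the test upward at weeks 1, 3 and 6, and 0, 1 and 1 downward. Of all genes, 11.0%, 11.9% and 24.1% were higher and 8.43%, 18.5% and 16.7% lower. The median differences of the 17 genes were 0.217, 0.326 and 0.0444. Jak3, a kinase of the receptor complex, was higher at each time, by 0.217 (limma adjusted p = 0.0121), 0.326 (limma adjusted p = 0.000179) and 0.601 (limma adjusted p = 4.85e-09). Between weeks 3 and 6, 3 of these genes rose and 6 fell in 4T1 tumors (34.2% and 18.8% of all genes), with the smallest p-values for the transcription factors Irf4, which fell by 1.26 (SE 0.135, limma adjusted p = 3.09e-08), and Klf4, which fell by 0.702 (limma adjusted p = 2.43e-06). In late Py230 tumors Irf4 was below the C57BL/6 glands, with a difference of -0.711 (limma adjusted p = 0.000123), as was Pparg, the regulator of fat cell and macrophage lipid genes, with -1.10 (limma adjusted p = 8.60e-05). Pparg is also an adipocyte gene, and the adipocyte list was at 0.460 in these tumors against 2.23 in the glands.

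Of 16 other targets of alternative activation 15 were measured, and 8, 8 and 3 of them had higher scores in 4T1 than Py230 tumors at weeks 1, 3 and 6, with 0, 0 and 1 lower, beside 11.0%, 11.9% and 24.1% of all genes higher and 8.43%, 18.5% and 16.7% lower. The medians were 0.624, 0.558 and 0.305. Pdcd1lg2, a ligand of the inhibitory receptor PD-1, was higher at week 1 by 1.46 (SE 0.297, limma adjusted p = 0.00150) and the chemokine Ccl17 by 1.36 (limma adjusted p = 0.00837). The chemokine Ccl24 was higher at week 3 by 1.22 (limma adjusted p = 0.000157). At week 6 fibronectin, Fn1, was higher by 1.38 (limma adjusted p = 2.88e-07) and the scavenger receptor Msr1 by 1.10 (limma adjusted p = 7.43e-06). Fn1 is made by many cell types besides macrophages. Between weeks 3 and 6 in 4T1 tumors 3 of the 15 rose and 3 fell (34.2% and 18.8% of all genes). Clec10a, the close relative of Mgl2, fell by 1.60 (SE 0.155, limma adjusted p = 5.90e-09), while Msr1 rose by 0.846 (limma adjusted p = 0.000160).

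Macrophage genes linked to interleukin-10 and glucocorticoids, the setting in which Cd163 is known to rise, numbered 20. Their scores were higher in the 4T1 model for 1, 10 and 6 genes at weeks 1, 3 and 6 and lower for 1, 1 and 3 (of all genes, 11.0%, 11.9% and 24.1% higher and 8.43%, 18.5% and 16.7% lower), with medians of 0.111, 0.288 and -0.00120. Maf, a macrophage transcription factor, was higher at week 3 by 0.583 (limma adjusted p = 0.000209), and Stab1, a scavenger receptor, by 0.479 (limma adjusted p = 0.00216). In 4T1 tumors 9 of the 20 fell and 2 rose between weeks 3 and 6 (18.8% and 34.2% of all genes), with the smallest p-values for Gas6 and Cd209f. Cd209f, a C-type lectin, changed by -1.52 (limma adjusted p = 1.84e-07) and Gas6, a ligand of Mertk, by -0.972 (limma adjusted p = 4.35e-08).

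Genes of classical activation, set beside Nos2, passed the test upward in 4T1 against Py230 tumors for 6 of 29 genes measured at each time point (11.0%, 11.9% and 24.1% of all genes) and downward for 1, 0 and 3 (8.43%, 18.5% and 16.7%), with medians of 0.199, 0.139 and 0.0308. Il6 was higher at week 1 by 0.549 (limma adjusted p = 0.00696). Ptgs2, which makes prostaglandin precursors, was higher at weeks 3 and 6 by 0.667 (limma adjusted p = 0.00357) and 0.938 (limma adjusted p = 5.09e-05), and Il23a at week 6 by 1.50 (limma adjusted p = 2.59e-08). Against the glands at week 6, 21 of the 29 rose and 1 fell in 4T1 tumors, where 38.6% of all genes were higher and 21.5% lower, and 10 rose and 1 fell in Py230 tumors, where 28.8% were higher and 18.7% lower. Of 10 targets of hypoxia, a state in which Arg1 and Nos2 can be induced, 6 were higher and 0 lower in late 4T1 than in late Py230 tumors (24.1% and 16.7% of all genes), with a median of 0.408, among them Ndrg1 by 0.632 (limma adjusted p = 2.63e-07) and the glucose transporter Slc2a1 by 0.558 (limma adjusted p = 0.000118). At week 3, 1 was higher and 1 lower (11.9% and 18.5% of all genes), the latter Car9 with a difference of -0.975 (limma adjusted p = 4.08e-05). The part of hypoxia in the Arg1 and Nos2 values was not tested.

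By the order of the group means, late 4T1 tumors were the highest of the 12 groups for Arg1 and Nos2 and the lowest for Slc7a2, Retnla and Mgl2, and early 4T1 tumors were the highest for Arg2, Retnla, Chil3, Mrc1, Cd163, Mgl2 and Egr2. Most neighbours in this order overlapped: of 11 neighbouring pairs, 1 was apart for Arg1, Slc7a2, Retnla and Mgl2 each and 0 for the other genes. For Slc7a2 the pair apart was that of the late 4T1 tumors and the group above them, the C57BL/6 glands of week 1, and for Retnla that of the BALB/c glands of week 1 and the late Py230 tumors below them.

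Over the 36 libraries, the most alike pairs among the 10 genes were Cd163 and Mgl2 with a Pearson's r of 0.915, Mrc1 and Cd163 with 0.903, Retnla and Mgl2 with 0.870 and Mrc1 and Mgl2 with 0.855. Arg1 was more like Chil3 (r = 0.814), Arg2 (0.748) and Nos2 (0.675) than like Mgl2 (0.232) or Retnla (-0.150). These libraries share the contrasts of model and time, so the values describe the set and were not tested. Among 11924 other genes that the deposited comparison table names and whose mean normalized count reached 100, those most like Arg1 were Tmem19 (r = 0.912), Gatm (0.907), Plod3 (0.899), Ddost (0.895) and Soat1 (0.886). Those most like Nos2 were Cd274 (0.860), which encodes PD-L1, Galc (0.840), Jak3 (0.830), Dpysl2 (0.793) and Nudt9 (0.791). Retnla was most like Clec10a (0.936), Gfra2 (0.931) and Cd209d (0.923), and Chil3 like Tfec (0.944), Pdcd1lg2 (0.924) and Slc36a1 (0.918). Mrc1 was most like Cfp (0.970), Dab2 (0.946) and Cd200r1 (0.935), Cd163 like Ap2a2 (0.927), Mgl2 (0.915) and Cd209d (0.915), and Mgl2 like Il1rl1 (0.925), Cd37 (0.919) and Naaa (0.917). Egr2 was most like Zfp36 (0.828), Bahd1 (0.819) and Ptpn1 (0.818), Arg2 like Acer3 (0.748) and Arg1 (0.748), and Slc7a2 like E330009J07Rik (0.755), Samd5 (0.741) and Prickle3 (0.735).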

How the data were processed

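RNA-seq of whole tissue was made by the authors from 100 ng of total RNA per library with a stranded preparation and paired 75 bp reads on a HiSeq4000. The authors aligned reads to mm10 with STAR, counted them per gene with summariseOverlaps and normalized them with DESeq2. Versions, annotation and the final scaling are not given in the sources used here. The authors deposited 1 table of scores for 36 libraries and 21650 genes, standardized so that the genes of every library average 0 with an SD of 1. These are not counts, so the depth of the libraries is unknown, no interval from depth is given, and 3 libraries per group limit the precision. The deposited comparison table was used only for gene names and for the authors' mean normalized count per gene. Its fold changes and p-values, and a table of gene categories, were not used. 0 columns were left unmapped, and 5366 genes were named from the reference annotation.

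One mean per group was fitted over all 36 libraries with limma 3.58.1 (R 4.3.3, mean-variance trend, robust variance), with Benjamini-Hochberg adjustment over all 21650 genes and a threshold of 0.05. The Arg1 score minus the Nos2 score was compared by two-sided exact permutation within weeks (8000 arrangements), adjusted over 3 tests. Scripts were tested on simulated data. Python 3.11.15, pandas 2.3.3 and matplotlib 3.10.9 were used. The text names the 10 genes in every comparison, from each other list the 2 genes with the smallest p-value in a comparison, and the 5 (Arg1, Nos2) or 3 genes most correlated with each of the 10. Of the genes this rule names, 2 are not reported here. Genes named at a further time point, and the clause on S100a8, S100a9 and Ly6g, were added after their values were seen. The genes and lists were chosen with earlier results of these data known. Same-numbered libraries of compared groups deviated together (r over 0.1) in 16 of 48 pairs, with r from -0.466 to 0.789, and in every pair of 1 of 16 comparisons, the glands of the strains at week 1 (r = 0.413, 0.789 and 0.558). No label says what a number shares, so the main analysis does not pair them. No 2 libraries were duplicates (highest correlation 0.993). Alternatives were quantile and cyclic loess normalization, a filter at a mean normalized count of 10, no trend or robust step, a replicate block, only the libraries compared, subtraction of the strain difference of the glands and leaving out each library. Promoters came from RefSeq GRCm38.p6.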

Additional observations from a re-analysis of the deposited data

Results flagged for a closer look

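The difference between 4T1 and Py230 tumors changed over time past the limma threshold in 8 cases, each a test of the change itself. Between weeks 3 and 6 it changed by -1.14 for Slc7a2 (adjusted p = 0.000228), -1.68 for Retnla (adjusted p = 0.000737), -1.07 for Mgl2 (adjusted p = 0.00467) and -0.959 for Egr2 (adjusted p = 0.000240). All 4 calls held without each of the 12 libraries in turn. Between weeks 1 and 6 it changed by -0.845 for Slc7a2 (adjusted p = 0.00331), -1.61 for Retnla (adjusted p = 0.000913), -0.728 for Mgl2 (adjusted p = 0.0469) and -0.630 for Egr2 (adjusted p = 0.00895). The Mgl2 call was lost without 10 of the 12 libraries (adjusted p from 0.0520 to 0.153) and on only the 12 libraries compared (adjusted p = 0.0872), and the other 3 were not lost. Cd163 changed by -0.834 between weeks 3 and 6 and did not pass (adjusted p = 0.0507). Over the same interval all 6 adipocyte, 4 of 6 dendritic cell and 3 of 4 eosinophil markers fell in 4T1 tumors, where 18.8% of all genes fell. The part of these cell types in the changes was not tested.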

How the results depend on the processing

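No called gene reversed its direction under any alternative. The replicate block (same-numbered libraries as a block) kept 50 of 50 calls and all 22 comparisons within their limits, as did the filter at a mean count of 10 and the fit without trend and robust step for the calls. The labels give same-numbered libraries nothing in common but the number, and the block changed no call. In the strain glands of week 1, whose 3 pairs deviated together, a block on these 2 groups alone was chosen after seeing the data. It also gave 0 calls among the 10 genes (limma, 3 at an unadjusted p under 0.05), where 727 of all genes were called. Quantile normalization lost Mgl2 in the change from weeks 1 to 6 (-0.679, limma adjusted p = 0.0547) and cyclic loess lost Arg1 in 4T1 tumors from weeks 3 to 6 (0.555, limma adjusted p = 0.0791). A limma fit on only the libraries compared lost 25 of 50 calls. The counts became 0 for 4T1 against Py230 at weeks 1 and 3, where 1487 and 434 of all genes were called. They were 0 for 4T1 against BALB/c glands at weeks 1 and 3 (7 and 4 at an unadjusted p under 0.05, with 0 of all genes called). For Py230 against C57BL/6 glands they were 0 and 7 at weeks 3 and 6, where 36 and 11831 of all 21650 genes were called. For Py230 tumors they were 0 and 1 from weeks 1 to 3 and 3 to 6, where 3 and 92 of all genes were called. Subtracting the strain difference left 0, 2 and 3 calls at weeks 1, 3 and 6, where 0.305%, 9.15% and 25.5% of all genes were called. Of 17 calls, 12 were lost.

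Leaving out each library in turn lost 65 of 348 calls. The counts ranged from 0 to 7, 6 to 10 and 4 to 5 for 4T1 against Py230 tumors at weeks 1, 3 and 6, and from 1 to 8, 0 to 6 and 5 to 7 for 4T1 tumors against BALB/c glands. They ranged from 0 to 1 for Py230 tumors against C57BL/6 glands at week 3 and were 3 at week 6. In 4T1 tumors they ranged from 0 to 2 between weeks 1 and 3 and 5 to 7 between weeks 3 and 6, and in Py230 tumors from 0 to 1 and 0 to 2. For the change of the model difference they ranged from 4 to 5 (weeks 3 to 6) and 3 to 6 (weeks 1 to 6). The Arg1 minus Nos2 differences ranged from 0.236 to 0.416, 0.224 to 0.405 and 0.138 to 0.275 for the 3 comparisons. A group left with 1 library less shares the spread of the other groups. The depth of the libraries is unknown, so what it limits could not be assessed.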
